A study of Mus musculus with 12 samples.

Results

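The response to lipopolysaccharide (LPS) was measured in brain macrophages of whole-body irradiated mice, by comparing the 3 libraries titled as whole-body irradiated and given LPS with the 3 titled as whole-body irradiated and not given LPS. These are 6 of the 12 libraries of the series, and every gene of the table was considered. The mice of these 6 libraries were wild-type C57BL/6J aged 6 months, male per the series design. Each had received a bone marrow transplant with no head shield, so the brain lay in the irradiation field. PLX5622, a drug that blocks the CSF1 receptor and thereby removes most microglia, was then fed for 2 weeks, and standard chow for a further 6 weeks. An intraperitoneal injection of 50 µg LPS or of saline was given, and brain cells were sorted 6 hours later. The other 6 libraries, from mice treated alike but with the head shielded, are used below to ask which parts of the response differed by shield.

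The sort used magnetic beads against CD11b, a surface protein of all myeloid cells, so the libraries can hold microglia, macrophages of marrow origin, border macrophages, monocytes and neutrophils. No marker in the labels separates host from graft cells, and RNA was linearly amplified before sequencing. These are bulk libraries, in which fewer cells of a type and less RNA per cell cannot be told apart. Totals were 56776710 to 60495968 counts in the LPS libraries and 18090977 to 40792878 in the saline libraries. Csf1r encodes the receptor of the growth factor that keeps microglia and macrophages alive. It took 0.544% of counts in the LPS group and 0.6721% in the saline group. The defining T cell gene Cd3e had 49 reads in the 6 libraries together. Markers of oligodendrocytes, astrocytes, neurons and endothelium were detected as well, with summed levels given below.

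LPS is a lipid of the outer membrane of Gram-negative bacteria. CD14 passes it to the complex of TLR4 and MD-2, and the adaptors MyD88 and TRIF then start a branch that ends in NF-kB and MAP kinases and a branch that ends in interferon regulatory factors and type I interferon. LPS in the abdomen also acts on the brain indirectly, through cytokines made elsewhere and through adrenal glucocorticoids, which enter the brain and act on nuclear receptors inside cells.

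Of 18875 genes tested, the edgeR quasi-likelihood test with Benjamini-Hochberg adjustment (threshold 0.05) called 8128, which is 43.1%. The genes higher after LPS numbered 4585 (24.3% of those tested) and the lower ones 3543 (18.8%). At 2-fold or more the called genes were 1339 higher and 1458 lower, while 431 called genes rose by 4-fold or more and 160 fell by 4-fold or more, and 48 rose while 3 fell by 16-fold or more. The median gene had a log2 fold change of -0.06, or -0.36 when libraries were scaled by their totals in place of TMM (2656 higher, 6520 lower), so counts of members that moved by over 1.5 times under that scaling are given beside the lists described. In the text, "rose" and "fell" are used only for called genes, a value written with ± is a log2 fold change of LPS over saline with its standard error (SE), n is 3 libraries a group, and levels are given in CPM, the reads of a gene scaled to the size of its library with TMM.

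**Figure D1:**
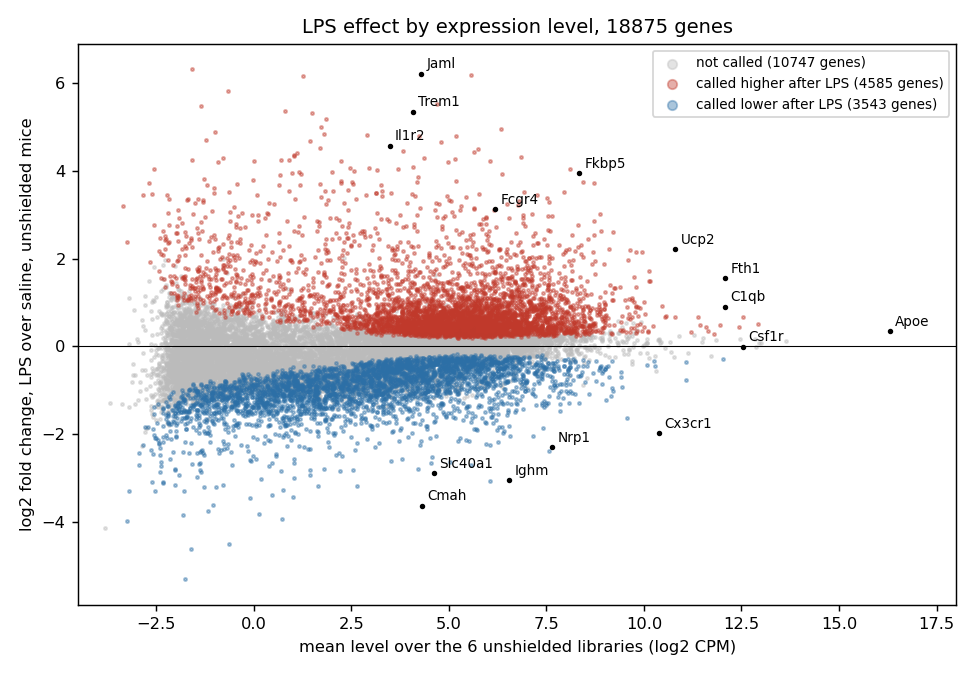
Each point is 1 of the 18875 genes tested, placed by its mean level over the 6 unshielded libraries (log2 CPM) and its log2 fold change of LPS over saline; red and blue mark genes called higher (4585) and lower (3543). Jaml and Trem1 lead the labelled increases, Cmah leads the labelled decreases, and the abundant genes Apoe and Csf1r lie near 0.

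The 3 LPS libraries differed in how far they lay from the saline libraries, and whether they responded to a different extent was not tested. Whatever their size, 29.6% of genes tested were higher in all 3 LPS libraries than in every saline library and 31.7% lower in all 3. Among 1332 genes called at least 2-fold higher with no overlap between groups, LPS library 2 was the highest in 949, LPS library 1 in 144 and LPS library 3 in 239. Among 1440 genes called at least 2-fold lower without overlap, LPS library 2 was the lowest in 947. This library also had the lowest summed levels of oligodendrocyte, astrocyte, neuronal and endothelial markers, described below. In the saline group, library 3 was the highest in 596 of the 1332 rising genes, library 1 in 461 and library 2 in 275. Values below are therefore given library by library where a result turns on them.

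Interferon-stimulated genes, NF-kB feedback genes and glucocorticoid targets were among the genes that rose, and the sequence before their start sites was searched for the letters that the interferon-activated factors, NF-kB and the glucocorticoid receptor are known to bind. RefSeq windows (GRCm38.p6) of 250 bases before to 50 after the start were matched by symbol to 12709 of the genes tested, a gene with several windows counting once if any held the motif. The interferon-response letters GAAANNGAA, on either strand, stood in 8.95% of all these genes, in 16.7% of 946 genes called at least 2-fold higher, in 8.27% of 992 called at least 2-fold lower and in 8.13% of 6602 not called. Among the antiviral genes called higher 11 of 19 with a window held it, and among the guanylate-binding and related GTPases called higher 8 of 9. Bst2 and Irgm2, which were not called, held it too. Over all tested members with a window the counts were 12 of 20 and 9 of 10, in the same order. The kappa-B letters GGANTTTCC, on either strand, were in 1.75% of all these genes, in 3.17% of the 946 called at least 2-fold higher, in 4.21% of 309 called at least 4-fold higher and in 1.51% of those called at least 2-fold lower. They were found in 3 of 12 NF-kB subunit and inhibitor genes called higher with a window, Nfkbia, Nfkb2 and Tnfaip3. Of 13 chemokine genes called higher with a window 4 held them, Cxcl10 and the neutrophil-attracting Cxcl1, Cxcl2 and Cxcl3. Over all tested members with a window, called or not, 4 of 16 held them in each of these lists. The full glucocorticoid response palindrome, AGAACA and TGTTCT with 3 bases between, occurred in a window of only 1 of the 12709 genes, the kinase gene Sgk1, a known glucocorticoid target that rose by 1.49 ± 0.17 (edgeR adjusted p = 2.41e-05). A match describes the letters only. For each list the called gene with the highest fold change among those with the motif in the 250 bases before the start is shown, as the plainest examples of these letters, 5′ to 3′ on the gene's own strand with the motif in capitals. In GRCm38.p6 these stretches are chr5:120777660-120777909 (minus strand) for Oas3, chr3:142620413-142620662 (plus strand) for Gbp2, chr12:55492648-55492897 (minus strand) for Nfkbia, chr5:90785851-90786100 (plus strand) for Cxcl3, chr10:21993640-21993889 (plus strand) for Sgk1.
Oas3: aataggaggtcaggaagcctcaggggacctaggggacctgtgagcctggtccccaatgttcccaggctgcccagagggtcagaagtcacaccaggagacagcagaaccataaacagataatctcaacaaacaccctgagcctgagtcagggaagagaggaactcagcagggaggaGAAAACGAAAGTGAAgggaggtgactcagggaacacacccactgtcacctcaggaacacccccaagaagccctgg
Gbp2: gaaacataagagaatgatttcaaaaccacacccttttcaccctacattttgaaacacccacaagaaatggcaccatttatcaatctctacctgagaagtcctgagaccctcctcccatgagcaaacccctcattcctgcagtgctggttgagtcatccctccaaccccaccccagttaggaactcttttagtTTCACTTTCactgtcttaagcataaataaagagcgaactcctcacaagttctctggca
Nfkbia: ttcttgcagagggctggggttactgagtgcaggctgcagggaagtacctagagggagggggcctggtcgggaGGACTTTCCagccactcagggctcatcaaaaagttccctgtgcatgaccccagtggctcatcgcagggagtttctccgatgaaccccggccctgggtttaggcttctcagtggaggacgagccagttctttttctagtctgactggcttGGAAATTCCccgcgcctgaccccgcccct
Cxcl3: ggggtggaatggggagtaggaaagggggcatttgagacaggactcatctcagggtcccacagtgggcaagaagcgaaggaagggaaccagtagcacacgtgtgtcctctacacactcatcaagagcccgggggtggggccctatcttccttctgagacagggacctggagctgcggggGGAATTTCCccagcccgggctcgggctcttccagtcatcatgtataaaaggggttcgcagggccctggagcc
Sgk1: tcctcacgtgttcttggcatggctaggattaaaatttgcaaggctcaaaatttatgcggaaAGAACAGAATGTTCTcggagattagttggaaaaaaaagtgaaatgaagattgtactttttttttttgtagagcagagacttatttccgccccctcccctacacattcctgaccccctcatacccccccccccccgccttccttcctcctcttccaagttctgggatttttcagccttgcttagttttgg
The Oas3 window holds overlapping interferon-response matches that begin 75 and 69 bases before the start, and the Gbp2 match, on the opposite strand, begins 58 bases before it. Nfkbia has kappa-B matches 178 and 29 bases before the start, and Cxcl3 has 1 at 72 bases. The Sgk1 window is 1 of 6 that RefSeq lists for the gene, with the palindrome beginning 189 bases before its start. Oas3 rose by 3.76 ± 0.33, Gbp2 by 3.41 ± 0.31, Nfkbia by 2.11 ± 0.14 and Cxcl3 by 4.34 ± 0.41.

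Sensing of LPS itself changed in a mixed way. Of the genes of the LPS receptor complex and its adaptors 9 of 16 tested rose and 4 fell (median 0.43, all genes -0.06). Tlr4, the signalling receptor, stood at 42.6, 44.1 and 43.9 CPM in LPS libraries 1 to 3 and at 56, 56.8 and 58.4 CPM in saline libraries 1 to 3. Its groups did not overlap, and it fell by 0.39 ± 0.09 (edgeR adjusted p = 0.00374). Ly96, which encodes the LPS-binding partner MD-2, fell by 0.80 ± 0.13. Cd180, a TLR4 relative that restrains LPS signalling in macrophages, stood at 26.2, 14.4 and 16.1 CPM in LPS libraries 1 to 3 and at 106, 149 and 114 CPM in saline libraries 1 to 3. Cd180 fell by 2.70 ± 0.22 (edgeR adjusted p = 2.78e-06), with no overlap. Cd14 rose by 2.15 ± 0.18, the adaptor Myd88 by 1.65 ± 0.11 and Irak3, an inactive kinase that blocks the pathway, by 1.69 ± 0.13. Scaling by library totals left 5 of 16 rises in this list.

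Receptors for other microbial patterns rose in 14 of 20 tested (median 0.98), and 1 fell, or 2 with library totals. Clec4e (Mincle), a receptor for mycobacterial glycolipids and dead cells, stood at 142, 261 and 220.0 CPM in LPS libraries 1 to 3 and at 4.49, 4.57 and 13.4 CPM in saline libraries 1 to 3. Saline library 3 lay above its companions, no value overlapped, and the gene rose by 4.78 ± 0.50 (edgeR adjusted p = 2.49e-05), or by 5.49 without that library. Its neighbour Clec4d rose by 4.27 ± 0.27, Tlr2, which binds bacterial lipoproteins, by 1.33 ± 0.20, the RNA sensor Tlr8 by 1.53 ± 0.33 and the cytosolic RNA sensor Ifih1 by 2.04 ± 0.15. The exception was Clec7a (Dectin-1), the receptor for fungal beta-glucans, at 97.7, 93.5 and 76.8 against 366, 300.4 and 309 CPM (LPS against saline), a log2 fold change of -1.86 ± 0.17.

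Inhibitors of NF-kB rose, and so did the subunit genes Rela, Relb and Nfkb2, while the subunit genes Nfkb1 and Rel were not called. Of the subunits and inhibitors 15 of 20 tested rose and none fell by edgeR (median 1.13), although 2 fell with library totals. Nfkbia, whose product holds NF-kB in the cytoplasm, stood at 588, 813 and 693 CPM in LPS libraries 1 to 3 and at 181, 148 and 157 CPM in saline libraries 1 to 3. The atypical inhibitor Bcl3 rose by 3.10 ± 0.25, the deubiquitinase Tnfaip3 (A20) by 1.95 ± 0.24 and its partner Tnip3 by 2.58 ± 0.35. Among the DNA-binding subunits Rela rose by 0.89 ± 0.16 and Relb by 1.33 ± 0.24. The precursor of the p50 subunit, Nfkb1, was at 176, 222 and 204 CPM in LPS libraries 1 to 3 and at 189.5, 191 and 193 CPM in saline libraries 1 to 3, with overlapping groups and a log2 fold change of 0.07 ± 0.15 (edgeR adjusted p = 0.712), and Rel at 0.23 ± 0.21 (edgeR adjusted p = 0.404). Ikbke, a kinase of the interferon branch, rose by 3.84 ± 0.32. Of the MAP kinase phosphatases and mRNA decay factors 9 of 17 rose and 3 fell. Dusp1, which switches off p38 and JNK, rose by 2.18 ± 0.21, Zc3h12a (regnase-1), which degrades cytokine mRNA, by 2.22 ± 0.24, and Zfp36, another such factor, by 1.08 ± 0.24. Dusp6, a phosphatase for ERK, was at 0.12 ± 0.15 (edgeR adjusted p = 0.538).

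Interferon-stimulated genes rose in 26 of 27 and 14 of 16 members of their lists. The former count is of antiviral effectors (median 2.26) and the latter of GTPases of the guanylate-binding and immunity-related families (median 1.70), and no member of either fell by edgeR. Oasl1, which limits translation of Irf7, stood at 96.1, 166 and 153 CPM in LPS libraries 1 to 3 and at 6.22, 5.73 and 10.7 CPM in saline libraries 1 to 3. It rose by 4.19 ± 0.35 (edgeR adjusted p = 5.37e-06). Zbp1, a sensor of Z-form nucleic acid, rose by 3.06 ± 0.27, Rsad2 (viperin) by 3.13 ± 0.26 and Irgm1 by 1.93 ± 0.12. The members that were not called were Bst2 (tetherin) at 0.22 ± 0.19 (edgeR adjusted p = 0.342), Irgm2 at 0.14 ± 0.12 (edgeR adjusted p = 0.364) and Gbp8. Ifnb1, the gene of interferon beta, stood at 0.463, 0.936 and 0.616 CPM in LPS libraries 1 to 3 and at 0.251, 0.289 and 0.115 CPM in saline libraries 1 to 3, a rise of 1.64 ± 0.41 (edgeR adjusted p = 0.00596) at very low levels.

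The factors that carry the interferon and cytokine signal split. Of the IRF, STAT and SOCS genes 17 of 27 rose and 3 fell (6 fell with library totals). Irf7, which amplifies type I interferon, rose by 2.93 ± 0.25, Stat2 by 2.02 ± 0.13, Stat3, the factor downstream of IL-6 and IL-10, by 2.21 ± 0.16 and the kinase Jak3 by 2.30 ± 0.18. Socs3, the brake on STAT3 signalling, stood at 1208, 1885 and 1553 CPM in LPS libraries 1 to 3 and at 125, 107 and 122 CPM in saline libraries 1 to 3 and rose by 3.71 ± 0.24 (edgeR adjusted p = 4.78e-07). Socs1 rose by 1.89 ± 0.21 and Cish by 2.19 ± 0.31. Irf8, a factor that microglia need for their development, fell by 1.09 ± 0.15, and Irf4 fell by 1.60 ± 0.24.

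Secreted signals were among the largest changes. Of the CC and CXC chemokines 17 of 23 rose and 3 fell (median 1.93). Ccl5, which attracts T cells and monocytes, stood at 147, 258 and 206 CPM in LPS libraries 1 to 3 and at 1.96, 2.17 and 8.91 CPM in saline libraries 1 to 3, a rise of 5.53 ± 0.53 (edgeR adjusted p = 1.32e-05) that was 6.61 without saline library 3. Cxcl2 rose by 3.02 ± 0.27, Ccl9 by 3.11 ± 0.20, Ccl22, a ligand of CCR4, by 3.50 ± 0.43 and Cxcl9, an interferon-gamma-responsive ligand of CXCR3, by 4.06 ± 0.61. Ccl2, the main monocyte attractant of this family, was at 44.7, 50.6 and 44.8 CPM in LPS libraries 1 to 3 and at 46, 46 and 34.6 CPM in saline libraries 1 to 3. Its groups overlapped and its log2 fold change was 0.15 ± 0.29 (edgeR adjusted p = 0.698). Those that fell were Cxcl12, which retains CXCR4-bearing cells, at 6.2, 2.75 and 5.3 CPM in LPS libraries 1 to 3 and at 33, 26.1 and 27.3 CPM in saline libraries 1 to 3 (log2 fold change -2.60 ± 0.29), the CCR3 ligand Ccl24 (-1.20 ± 0.22) and Cx3cl1, the ligand of CX3CR1. Cx3cl1 fell by 1.01 ± 0.33 (edgeR adjusted p = 0.0268), a call that ended without LPS library 2 or saline library 2 (adjusted p = 0.131 and 0.0801) and with no low-count filter (0.112).

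Cytokines and growth factors rose in 20 of 27 tested and fell in 4 (median 1.07). Il6 rose by 2.75 ± 0.29, Il12b, the p40 subunit of IL-12 and IL-23, by 2.62 ± 0.55, Osm by 1.54 ± 0.20 and Tnfsf9 (4-1BB ligand) by 2.96 ± 0.25. Csf3, which drives neutrophil production, stood at 23.3, 24.8 and 20.1 CPM in LPS libraries 1 to 3 and at 0.182, 0.337 and 3.72 CPM in saline libraries 1 to 3, a rise of 3.97 ± 0.77 (edgeR adjusted p = 0.00176) that was 6.54 without saline library 3 and 3.35 without saline library 1. Tnf was at 88.9, 116 and 76.6 CPM in LPS libraries 1 to 3 and at 52.1, 43.8 and 35.6 CPM in saline libraries 1 to 3, and its rise was only 1.10 ± 0.26 (edgeR adjusted p = 0.00549). Il1b rose by 0.82 ± 0.27 (edgeR adjusted p = 0.0303), a call that ended when LPS library 2, saline library 2 or saline library 3 was left out (adjusted p = 0.119, 0.0829 and 0.126), with no filter (0.11), with library totals (0.0879) and without the 2 head-shielded libraries whose labels conflict (0.0522). By contrast Il1rn, the secreted antagonist of IL-1, stood at 314, 588 and 523 CPM in LPS libraries 1 to 3 and at 11.6, 10.7 and 23.6 CPM in saline libraries 1 to 3, a rise of 4.95 ± 0.41 (edgeR adjusted p = 5.28e-06), and Il1r2, a decoy receptor that binds IL-1 without signalling, rose by 4.56 ± 0.20. Growth factors were among those that fell. Igf1 was at 24.6, 27.9 and 30.6 CPM in LPS libraries 1 to 3 and at 86.2, 57.6 and 71.7 CPM in saline libraries 1 to 3 and fell by 1.38 ± 0.24, and Pdgfb fell by 1.32 ± 0.15. Il15 fell by 1.23 ± 0.15 while Il15ra, which presents IL-15 on the cell surface, rose by 3.26 ± 0.21. Neither pair of groups overlapped.

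Receptors for these signals rose in 14 of 29 cytokine receptor genes and fell in 6, or 11 with library totals. Il4ra rose by 2.22 ± 0.16, and Csf2rb, the shared chain of the receptors for GM-CSF, IL-3 and IL-5, by 2.15 ± 0.15. Its near-identical copy Csf2rb2 rose by 2.38 ± 0.17, and reads of these copies may be split between them. Csf1r was at -0.00 ± 0.12 (edgeR adjusted p = 0.981) but was called lower with library totals (-0.31, adjusted p = 0.00642). Chemokine and chemoattractant receptors rose in 10 of 20 and fell in 4. Cx3cr1, the fractalkine receptor of microglia, stood at 899, 604 and 546 CPM in LPS libraries 1 to 3 and at 2680.0, 2966 and 2410.0 CPM in saline libraries 1 to 3 and fell by 1.98 ± 0.19. Ccr7, which guides cells to lymphatics, rose by 4.23 ± 0.38, and Fpr2, a receptor for formylated peptides and serum amyloid A, by 4.82 ± 0.36 (5.50 without saline library 3). The receptors for the anaphylatoxins moved apart, as C5ar1 rose by 2.18 ± 0.16 and C3ar1 fell by 1.07 ± 0.12. Ccr2, which draws monocytes to CCL2, fell by 1.05 ± 0.21, and Cxcr3 also fell, standing at 1.1, 0.546 and 0.504 CPM in LPS libraries 1 to 3 and at 6.7, 5.83 and 4.81 CPM in saline libraries 1 to 3 (edgeR adjusted p = 6.53e-05).

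**Figure D2:**
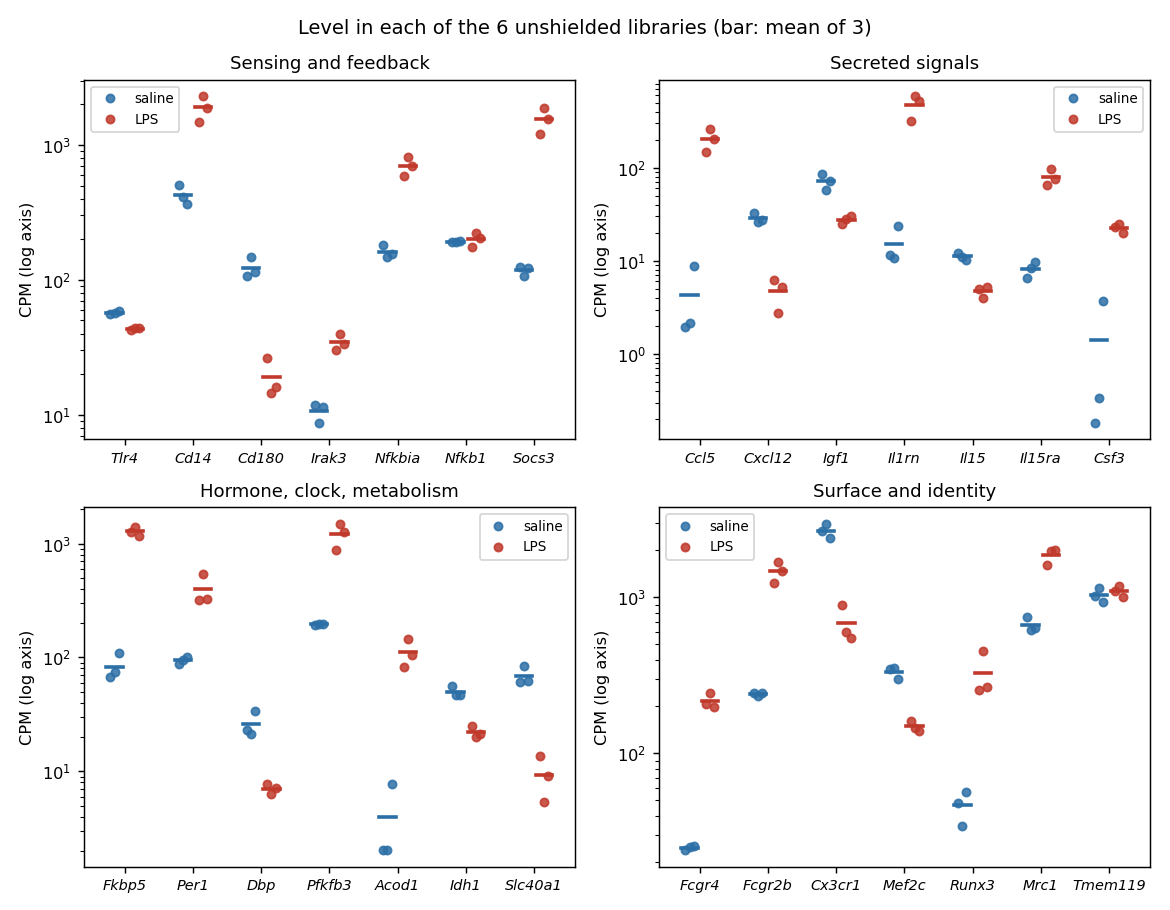
Each point is the level of a gene in 1 library (CPM, log axis), blue for the 3 saline and red for the 3 LPS libraries, and each bar is the mean of 3. Groups do not overlap for any gene drawn except Nfkb1 and Tmem119, and saline library 3 (the right point of each blue set) stands above its companions for Ccl5, Csf3 and Acod1.

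Genes of lipid mediators changed in both directions, with 9 of 23 rising and 5 falling. Ptgs2 (COX-2) rose by 1.95 ± 0.25, the terminal synthase Ptges by 2.19 ± 0.28 and the receptor Ptger2 by 2.44 ± 0.24. Hpgd, which inactivates prostaglandins, stood at 32.8, 14.3 and 24.1 CPM in LPS libraries 1 to 3 and at 202, 219.5 and 175 CPM in saline libraries 1 to 3, and it fell by 3.06 ± 0.27 (edgeR adjusted p = 5.41e-06). Hpgds, which makes prostaglandin D2, fell by 1.28 ± 0.12. In the leukotriene arm the LTB4 receptor Ltb4r1 rose by 2.64 ± 0.27, the LTB4-forming enzyme Lta4h fell by 0.39 ± 0.10 and the cysteinyl leukotriene receptor Cysltr1 fell by 0.79 ± 0.10.

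Receptors for purines and metabolites rose in 11 of 23 and fell in 7. Among those that rose were the adenosine receptors Adora2b, by 2.85 ± 0.33, and Adora2a, by 2.30 ± 0.29, and Nt5e (CD73), which makes adenosine, by 1.82 ± 0.34. P2ry2, a receptor for ATP and UTP, stood at 40.1, 65.8 and 56.8 CPM in LPS libraries 1 to 3 and at 2.58, 2.65 and 4.58 CPM in saline libraries 1 to 3 and rose by 4.04 ± 0.32 (edgeR adjusted p = 3.47e-06). P2ry12, the ADP receptor by which microglia sense injury, fell by 1.21 ± 0.19, P2rx7 by 0.58 ± 0.09 and Gpr34 by 2.37 ± 0.23. The sphingosine-1-phosphate receptor S1pr1 fell by 1.53 ± 0.12 and the lysophosphatidic acid receptor Lpar6 by 1.41 ± 0.10, while Gpr84, which binds medium-chain fatty acids, rose by 2.36 ± 0.21. The median of this list (0.15) and that of the prostaglandin and leukotriene list (0.23) turned negative with library totals, at -0.14 and -0.08.

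Targets of the glucocorticoid receptor rose in 15 of 18 tested, with a median of 2.08, and none fell by edgeR (1 fell with library totals). Fkbp5, a chaperone of the receptor that limits its action, stood at 1263, 1409 and 1168 CPM in LPS libraries 1 to 3 and at 67.1, 74 and 108 CPM in saline libraries 1 to 3. All LPS libraries lay above every saline library, and the rise was 3.94 ± 0.18 (edgeR adjusted p = 3.07e-08). Ddit4, an inhibitor of mTOR complex 1, rose by 3.93 ± 0.20, the zinc finger factor Zbtb16 by 4.29 ± 0.35 and Tsc22d3 (GILZ), an anti-inflammatory mediator of glucocorticoids, by 2.97 ± 0.10. Cdkn1a, also a p53 target, rose by 2.71 ± 0.14 and Klf9 by 1.78 ± 0.27. The receptor gene itself, Nr3c1, was at 159, 172 and 165 CPM in LPS libraries 1 to 3 and at 186, 197 and 184 CPM in saline libraries 1 to 3. Its log2 fold change was -0.19 ± 0.11 (edgeR adjusted p = 0.19), and with library totals it was called lower (-0.49, adjusted p = 0.000338). Hsd11b1, which regenerates active glucocorticoid in cells, was at -0.00 ± 0.34 (edgeR adjusted p = 0.995). The hormone was not measured.

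Clock genes rose in 6 of 19 tested and fell in 7 (median -0.34). Per1, a repressor that glucocorticoids induce, stood at 322, 545 and 326 CPM in LPS libraries 1 to 3 and at 88.3, 95.5 and 101 CPM in saline libraries 1 to 3, a rise of 2.07 ± 0.21. Per2 rose by 1.48 ± 0.23, Cry1 by 2.22 ± 0.13 and Nfil3, a repressor of D-box genes, by 3.46 ± 0.15. Dbp, an activator of the same D-box genes, stood at 7.7, 6.28 and 7.14 CPM in LPS libraries 1 to 3 and at 22.9, 21.4 and 34.1 CPM in saline libraries 1 to 3 and fell by 1.89 ± 0.18 (edgeR adjusted p = 5.97e-06). Nr1d1 (REV-ERB alpha) fell by 1.53 ± 0.15 and Per3 by 1.02 ± 0.20. The core activators Arntl and Clock were at 0.13 ± 0.13 and 0.15 ± 0.09 (edgeR adjusted p = 0.415 and 0.203). The hour of the day at which cells were collected is not given in the sources used here.

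Genes of glycolysis rose, and those of the TCA cycle moved both ways. Of the glycolysis and lactate genes 15 of 24 rose and 1 fell, or 6 with library totals. Pfkfb3, which makes the activator of phosphofructokinase, stood at 871, 1490.0 and 1250.0 CPM in LPS libraries 1 to 3 and at 192, 198 and 195 CPM in saline libraries 1 to 3 and rose by 2.62 ± 0.21. Lactate dehydrogenase Ldha rose by 1.86 ± 0.11, Pkm by 1.11 ± 0.12 and Hif1a, the hypoxia factor that drives these genes, by 1.28 ± 0.16. Of the TCA cycle genes 12 of 21 rose and 3 fell, against 5 and 7 with library totals. Acod1, which diverts cis-aconitate to itaconate, stood at 83, 146 and 105 CPM in LPS libraries 1 to 3 and at 2.05, 2.02 and 7.75 CPM in saline libraries 1 to 3, a rise of 4.79 ± 0.51 (edgeR adjusted p = 2.89e-05), or 5.74 without saline library 3. Among the isocitrate dehydrogenase genes Idh1 fell by 1.17 ± 0.13 and Idh2 fell by 0.78 ± 0.10. Nuclear genes of oxidative phosphorylation rose in 25 of 29 tested by small amounts (median 0.43), and 12 were called higher and 1 lower with library totals. Cycs rose by 1.13 ± 0.09, Cox5a by 0.80 ± 0.09 and Atp5b by 0.70 ± 0.10. Ucp2, an inner-membrane carrier, took 0.3535% of counts in the LPS group and 0.09386% in the saline group and rose by 2.22 ± 0.15.

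Genes of arginine and nitric oxide metabolism and of the phagocyte oxidase rose in 11 of 14 tested with none falling (median 1.17). Both enzymes that compete for arginine rose, Nos2 by 3.66 ± 0.63 and Arg1 by 3.11 ± 0.22. Ass1, which rebuilds arginine from citrulline, rose by 3.25 ± 0.24, the arginine transporter Slc7a2 by 2.06 ± 0.31 and Gch1, which makes the nitric oxide synthase cofactor, by 1.68 ± 0.11. Mitochondrial superoxide dismutase, Sod2, stood at 239, 425 and 418 CPM in LPS libraries 1 to 3 and at 33.3, 31.6 and 44.3 CPM in saline libraries 1 to 3 and rose by 3.31 ± 0.24. The cystine importer Slc7a11 rose by 3.41 ± 0.34, while catalase, Cat, fell by 0.84 ± 0.09.

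Iron and metal genes rose in 12 of 22 tested and fell in 3, or 6 with library totals. The iron exporter Slc40a1 (ferroportin) stood at 13.5, 5.4 and 9.18 CPM in LPS libraries 1 to 3 and at 61, 84.8 and 61.7 CPM in saline libraries 1 to 3. It fell by 2.88 ± 0.29 (edgeR adjusted p = 1.71e-05) and was lowest in LPS library 2. The ferritin heavy chain Fth1 took 0.6842% of counts in the LPS group and 0.289% in the saline group and rose by 1.55 ± 0.16. The zinc and iron importer Slc39a14 rose by 2.95 ± 0.19, the metallothioneins Mt1 and Mt2 by 3.39 ± 0.22 and 4.43 ± 0.56 (5.35 for Mt2 without saline library 3), and the iron-binding Lcn2 by 4.23 ± 0.72 (5.80 without it). The transferrin receptor Tfrc was at 0.11 ± 0.15 (edgeR adjusted p = 0.557). Lipid handling genes split evenly, 7 falling (11 with library totals) and 7 of 23 rising. Lipoprotein lipase Lpl fell by 1.50 ± 0.12, lysosomal acid lipase Lipa by 1.13 ± 0.10 and Cyp27a1, which makes 27-hydroxycholesterol, by 1.41 ± 0.14. Fabp4 rose by 3.34 ± 0.33. Apoe, the most abundant mRNA in both groups, took 7.60, 8.75 and 8.75% of counts in LPS libraries 1 to 3 and 9.41, 6.58 and 8.41% in saline libraries 1 to 3. Its groups overlapped and it was not called (0.34 ± 0.38, edgeR adjusted p = 0.489).

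Antibody receptors rose as a group, 7 of 8 tested (median 1.09). Fcgr4, an activating receptor, stood at 206, 243 and 199 CPM in LPS libraries 1 to 3 and at 23.9, 25 and 25.4 CPM in saline libraries 1 to 3. It rose by 3.12 ± 0.12 (edgeR adjusted p = 1.53e-08), and the inhibitory Fcgr2b rose as well, by 2.61 ± 0.15. Fcgr3 rose by 1.97 ± 0.11, Fcgr1 by 1.12 ± 0.11 and the shared signalling chain Fcer1g by 1.06 ± 0.11. Genes of MHC class I and the immunoproteasome rose in 20 of 21 tested (median 0.82), and 1 was called lower with library totals. The peptide transporter Tap1 rose by 1.53 ± 0.12, Nlrc5, the transactivator of these genes, by 1.95 ± 0.20 and B2m by 0.66 ± 0.12. For complement 9 of 17 genes rose and 1 fell, with factor B, Cfb, at 4.25 ± 0.54, C3 at 1.37 ± 0.30 and the abundant C1qb at 0.90 ± 0.11.

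Counts for MHC class II depended on single libraries. Of its genes 7 of 14 rose and 3 fell, but 3 rose without LPS library 2, saline library 2 or saline library 3, 4 without LPS library 3 or without the 2 head-shielded libraries with conflicting labels, and 2 rose and 5 fell with library totals. Ciita, the master switch of class II transcription, stood at 2.74, 3.33 and 3.81 CPM in LPS libraries 1 to 3 and at 10.4, 7.9 and 9.77 CPM in saline libraries 1 to 3. It fell by 1.51 ± 0.18 (edgeR adjusted p = 3.52e-05). H2-Aa, a class II chain under its control, was at 506, 734 and 675 CPM in LPS libraries 1 to 3 and at 496, 384 and 385 CPM in saline libraries 1 to 3, a rise of 0.60 ± 0.19 (edgeR adjusted p = 0.0245) that passed in the full set but not without LPS library 2 or 3, saline library 2 or 3 or the conflicting libraries (adjusted p = 0.0822, 0.0708, 0.108, 0.112 and 0.0515), nor with library totals (0.129). March1, which marks class II molecules for degradation, rose by 1.99 ± 0.13. The co-stimulatory receptor Cd40 rose by 3.32 ± 0.38, the co-stimulatory ligand Cd86 by 1.55 ± 0.15 and the inhibitory ligand Cd274 (PD-L1) by 1.86 ± 0.22.

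Microglia identity genes fell in 16 of 29 tested and rose in 2 (median -0.42). With library totals none was called higher and 20 were called lower. Only 1 was called higher without LPS library 1 or saline library 2 or 3. With no low-count filter 1 rose and 13 fell. In the unshielded libraries alone, with replicate numbers fitted as a block, 1 rose and 12 fell. The list holds P2ry12 and Cx3cr1, described above. Sall1, a factor of microglia identity, fell by 1.71 ± 0.39, Mef2c, another, by 1.16 ± 0.10, and Olfml3 by 0.92 ± 0.13. Tmem119 was at 1102, 1187 and 1002 CPM in LPS libraries 1 to 3 and at 1017, 1157 and 929 CPM in saline libraries 1 to 3. Its groups overlapped, with a log2 fold change of 0.09 ± 0.12 (edgeR adjusted p = 0.575). Of the list of marrow-derived brain macrophage genes, which rests on published work that may include these samples, 15 of 28 rose and 3 fell (5 in a fit of the unshielded libraries alone). The mannose receptor Mrc1 stood at 1603, 1972 and 2021 CPM in LPS libraries 1 to 3 and at 746, 619 and 640.3 CPM in saline libraries 1 to 3 and rose by 1.48 ± 0.17, the haemoglobin scavenger Cd163 by 2.09 ± 0.24, the endocytic adaptor Dab2 by 1.87 ± 0.15 and Tgfbi by 2.14 ± 0.17. Clec12a, an inhibitory lectin of the same list, fell by 2.21 ± 0.42. Mrc1, Cd163 and Dab2 also mark border macrophages, which line the meninges and vessels and which the sort admits. Of that list 7 of 16 tested rose and 4 fell (median -0.22, all genes -0.06). The counts were 6 and 7 with library totals, and 7 and 8 in a fit of the unshielded libraries alone. The summed level of the list, which includes the abundant Mrc1, was 6563 to 8604 CPM after LPS and 3551 to 4473 CPM after saline. Siglec1, which binds sialylated particles, rose by 1.82 ± 0.30, while the defining marker Lyve1, a hyaluronan receptor, was at 17.7, 11.2 and 7.81 CPM in LPS libraries 1 to 3 and at 12.2, 15.3 and 10.7 CPM in saline libraries 1 to 3, with overlapping groups (-0.05 ± 0.29, edgeR adjusted p = 0.905), and the folate receptor Folr2 fell by 0.95 ± 0.17. The part of these cells in the rise of Mrc1 and Cd163 was not tested.

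Lineage factors rose in 17 of 43 and fell in 14. Runx3 stood at 256, 456 and 266 CPM in LPS libraries 1 to 3 and at 48.1, 34.5 and 56.8 CPM in saline libraries 1 to 3, a rise of 2.81 ± 0.30 that was largest in LPS library 2. Runx1 rose by 1.82 ± 0.18, the inflammatory factor Cebpb by 2.62 ± 0.17 and Batf by 2.10 ± 0.15. Spi1 (PU.1), the myeloid master factor, rose by 0.58 ± 0.13, and Fli1 and Maf fell by 0.86 ± 0.09 and 0.79 ± 0.14. Of the TGF-beta pathway, on which microglia identity depends, 10 of 26 fell and 5 rose. With library totals 16 fell and 2 rose, and 3 rose without saline library 1 or 2. The receptors Tgfbr1 and Tgfbr2 fell by 0.42 ± 0.10 and 0.69 ± 0.10, the ligand Tgfb2 by 1.40 ± 0.25 and the feedback target Pmepa1 by 1.12 ± 0.14.

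Surface receptors that set the threshold of myeloid activation rose in 12 of 31 and fell in 7. Trem1, which amplifies Toll-like receptor signals, stood at 97.5, 136 and 114 CPM in LPS libraries 1 to 3 and at 1.32, 2.07 and 5.13 CPM in saline libraries 1 to 3. It rose by 5.34 ± 0.41 (edgeR adjusted p = 3.3e-06), or 6.13 without saline library 3. Cd300lf rose by 4.31 ± 0.28 and the inhibitory lectin Siglece by 2.09 ± 0.14. Of the inhibitory receptors Sirpa, which receives the CD47 signal, fell by 1.63 ± 0.11, Cd300a fell by 1.51 ± 0.10 and the collagen receptor Lair1 fell by 1.30 ± 0.14, while Cd47 itself rose by 1.74 ± 0.12. Sialic acid genes rose in 4 of 21 and fell in 7, against 2 and 13 with library totals. The rises numbered 1 or 2 without LPS library 1 or any 1 saline library. They numbered 2 with DESeq2, with no low-count filter and with a filter of 1 CPM in 3 libraries. Cmah, which makes the sialic acid form N-glycolylneuraminic acid, stood at 7.56, 3.61 and 6.14 CPM in LPS libraries 1 to 3 and at 69.7, 66.5 and 78.1 CPM in saline libraries 1 to 3. It fell by 3.63 ± 0.33 (edgeR adjusted p = 8.62e-06), the largest fall under the naming rule. The polysialic acid synthase St8sia4 fell by 1.87 ± 0.18 and St3gal2 by 1.26 ± 0.13, and St3gal4 rose by 1.20 ± 0.14.

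Death and survival genes rose in 16 of 26 and fell in 1, or 6 with library totals. Bcl2a1a, an NF-kB target that protects myeloid cells, rose by 2.20 ± 0.15, Mcl1 by 1.21 ± 0.12, Birc3 by 2.11 ± 0.16, and on the other side Fas rose by 2.31 ± 0.22 and Mlkl, the executioner of necroptosis, by 2.29 ± 0.18. Of the inflammasome genes 8 of 18 rose and 3 fell (8 with library totals, 5 without LPS library 2). Casp4 (caspase-11), the cytosolic sensor of LPS, stood at 67.8, 95.1 and 115 CPM in LPS libraries 1 to 3 and at 22.2, 23.2 and 19.6 CPM in saline libraries 1 to 3 and rose by 2.10 ± 0.18 (edgeR adjusted p = 2.44e-06). Mefv (pyrin) rose by 3.54 ± 0.32, Nlrp3 by 0.94 ± 0.19, and the pore former Gsdmd by 0.61 ± 0.09.

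Matrix genes and proteases rose in 17 of 25 tested and fell in 4 (median 1.46). Mmp19 stood at 23.6, 26.1 and 22.1 CPM in LPS libraries 1 to 3 and at 2.01, 2.46 and 2.19 CPM in saline libraries 1 to 3. The rise was 3.44 ± 0.13 (edgeR adjusted p = 1.53e-08). Mmp13 rose by 3.54 ± 0.39, the membrane-bound Mmp14 by 1.87 ± 0.23 and the transglutaminase Tgm2 by 2.86 ± 0.17, whereas Mmp2 fell by 1.29 ± 0.14. Plaur, the urokinase receptor, rose by 2.56 ± 0.11 while its ligand Plau fell by 1.13 ± 0.20. The inhibitor Timp1 rose by 4.22 ± 0.53 (5.79 without saline library 3) and Timp2 fell by 0.57 ± 0.09. Of the adhesion genes 11 of 26 rose and 5 fell, with 11 falling under library totals, 3 without LPS library 2 and 2 without LPS library 3. Jaml, a junctional adhesion molecule of leukocytes with the largest rise under the naming rule, stood at 213, 261 and 224 CPM in LPS libraries 1 to 3 and at 0.57, 0.867 and 7.78 CPM in saline libraries 1 to 3. The saline libraries ranged widely and the log2 fold change of 6.20 ± 0.71 (edgeR adjusted p = 4.8e-05) was 8.39 without saline library 3 and 5.62 without saline library 1. Vcam1 rose by 2.75 ± 0.20 and the fibronectin receptor chain Itga5 by 2.22 ± 0.17.

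Among genes chosen by the size of their change alone, Tgm1, a transglutaminase best known from skin, stood at 60.4, 74.3 and 66.4 CPM in LPS libraries 1 to 3 and at 2.55, 2.5 and 4.09 CPM in saline libraries 1 to 3. It rose by 4.45 ± 0.23 (edgeR adjusted p = 1.68e-07), and the heparan sulfate proteoglycan Sdc4 rose by 3.51 ± 0.19. The kinase Map3k6 rose by 4.64 ± 0.49 (5.60 without saline library 3). Slc46a3, a lysosomal transporter, stood at 9.45, 4.37 and 7.52 CPM in LPS libraries 1 to 3 and at 48.9, 55.3 and 44.1 CPM in saline libraries 1 to 3 and fell by 2.79 ± 0.23. Npnt (nephronectin), an integrin ligand, fell by 2.62 ± 0.16, Tln2 (talin-2) fell by 2.65 ± 0.36 and Nrp1 (neuropilin-1), a receptor for semaphorin 3A and VEGF, fell by 2.30 ± 0.20.

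**Figure D3:**
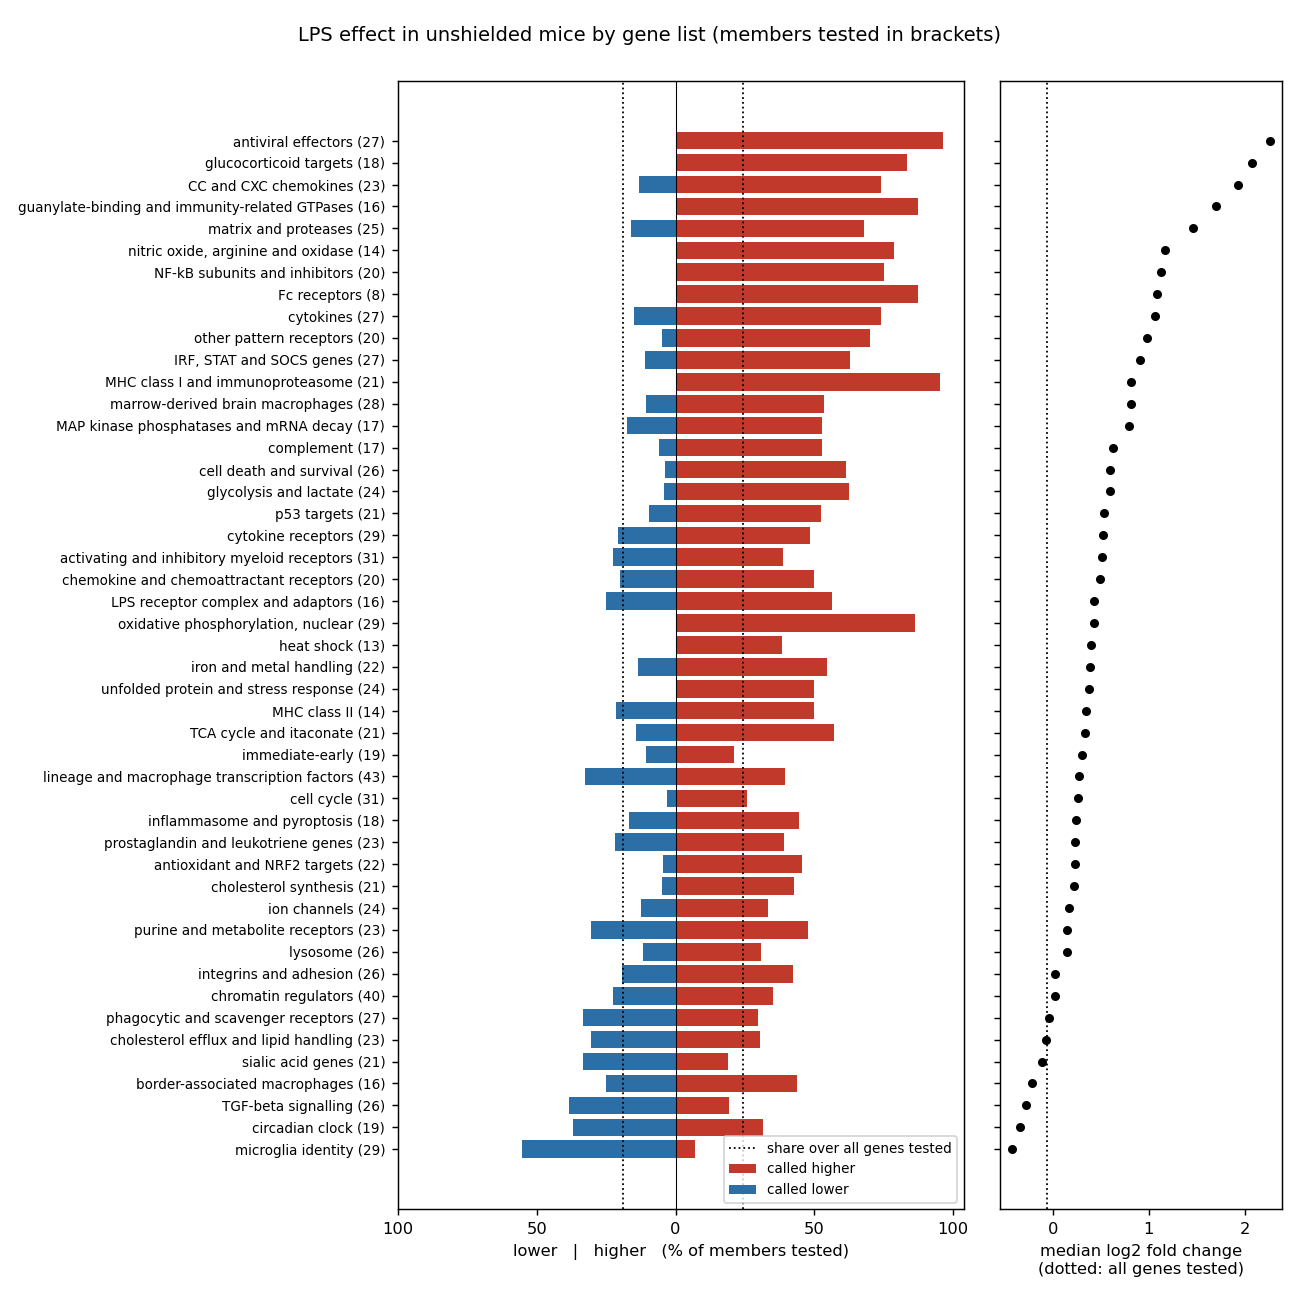
Bars give, for each gene list, the percent of tested members called higher (red, right) and lower (blue, left) after LPS; dotted lines mark 24.3% and 18.8% over all genes tested, and points at the right give the median log2 fold change beside that of all genes (-0.06). Of the lists drawn, antiviral effectors (2.26) and glucocorticoid targets (2.08) have the highest medians and microglia identity genes (-0.42) the lowest.

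Markers of other cells moved with LPS, and their part in the results above was not tested. Neutrophil genes, with Il1r2 and Lcn2 described above among them, rose in 11 of 18 tested (median 2.21). With replicate numbers fitted as a block 4 rose. Without LPS library 1 the median was 1.17, with 9 called higher and 1 lower. Their summed level was 1846, 1146 and 917.5 CPM in LPS libraries 1 to 3 and 343.9, 470.8 and 501.9 CPM in saline libraries 1 to 3. S100a8, a calcium-binding protein that fills neutrophils, stood at 217, 82.2 and 65.2 CPM in LPS libraries 1 to 3 and at 11.9, 24.4 and 30.6 CPM in saline libraries 1 to 3. LPS library 1 was far above its companions, and the rise of 2.45 ± 0.54 became 1.70 without it. Ngp, of neutrophil granules, rose by 2.56 ± 0.72 (edgeR adjusted p = 0.0144) but not without that library (adjusted p = 0.0852), with no low-count filter (0.0634) or in a fit of the unshielded libraries alone (0.0773). Ly6g and Mpo were not called (0.86 ± 0.44 and 0.58 ± 0.98, edgeR adjusted p = 0.129 and 0.647). LPS library 1 thus had the highest neutrophil sum, while LPS library 2 was the most extreme in most response genes. Of the monocyte genes 9 of 15 rose and 2 fell, with a summed level of 931.6 to 1258 CPM after LPS and 584.1 to 787.0 CPM after saline. Ly6c2 rose by 3.76 ± 0.41 and Plac8 by 3.54 ± 0.31, both also interferon-responsive, while Ccr2 fell, as given above.

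B cell genes fell in 6 of 7 tested, and their summed level was 44.6 to 71.1 CPM after LPS and 311 to 367 CPM after saline. Ighm, the heavy chain of immunoglobulin M, stood at 43.9, 22.5 and 32.8 CPM in LPS libraries 1 to 3 and at 288, 287 and 242 CPM in saline libraries 1 to 3, and it fell by 3.04 ± 0.21 (edgeR adjusted p = 6.48e-07). Ighd fell by 3.43 ± 0.28 and the adaptor Bank1 by 2.57 ± 0.15. Cd79a, the signalling chain that B cells need to carry IgM, was at -0.23 ± 0.42 (edgeR adjusted p = 0.67). Of 16 endothelial and pericyte genes 7 fell and 3 rose, with summed levels of 161 to 260 CPM after LPS and 396 to 440 CPM after saline. The transporter Slco1a4 fell by 2.52 ± 0.32 and the tight junction gene Cldn5 fell by 1.53 ± 0.30, while P-selectin and E-selectin, which activated endothelium displays, rose, with Selp at 2.96, 2.57 and 3.95 CPM in LPS libraries 1 to 3 and at 0.182, 0.193 and 0.778 CPM in saline libraries 1 to 3 (edgeR adjusted p = 0.000558) and Sele up by 2.00 ± 0.44 (4.03 and 3.06 without saline library 3). Of 10 neuronal markers none was called by edgeR, although 7 were called lower in a fit of the unshielded libraries alone, and their summed level was lowest in LPS library 2 (162 CPM, against 236 and 290 CPM in LPS libraries 1 and 3 and 348 to 434 CPM after saline). With library totals 1 neuronal marker was called lower. Of 10 oligodendrocyte genes 2 fell, or 5 in a fit of the unshielded libraries alone and 8 with the replicate block. Their summed level was 1927, 1075 and 1567 CPM in LPS libraries 1 to 3 and 2174, 1804 and 2327 CPM in saline libraries 1 to 3. Of 10 astrocyte genes 1 rose and 1 fell, against 2 falling with library totals, 4 in the unshielded libraries alone and 5 with the block. The astrocyte sum was 288.5, 215.5 and 315.7 CPM in LPS libraries 1 to 3 and 310.9, 287.8 and 356.4 CPM in saline libraries 1 to 3.

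**Figure D4:**
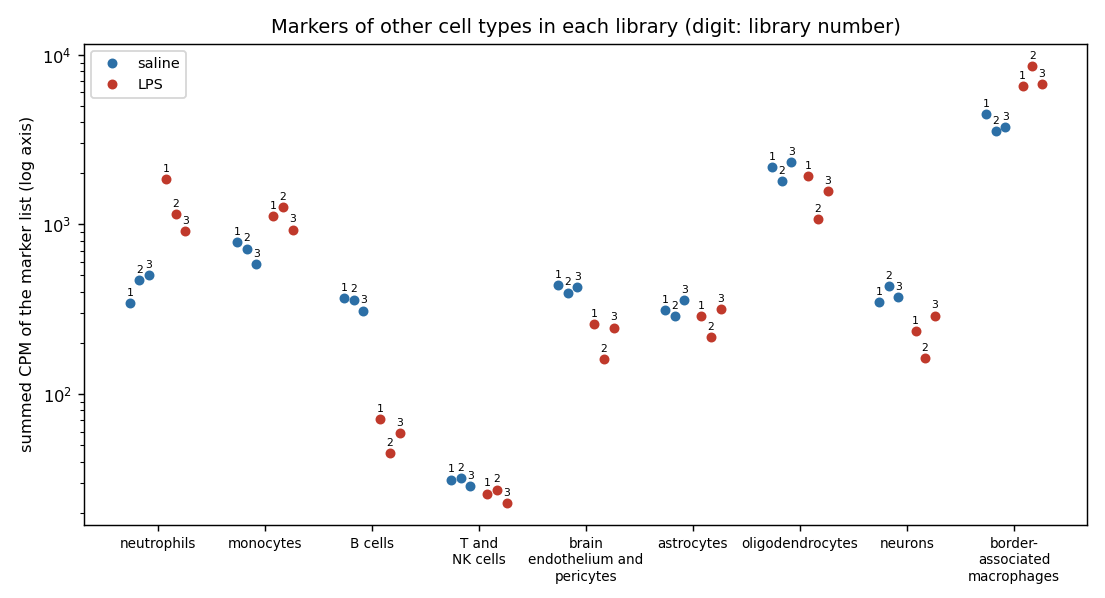
Points give the summed level of each marker list in 1 library (CPM, log axis), blue for saline and red for LPS, with the library number above. B cell and endothelial sums are lower in every LPS library than in every saline library, neutrophil and monocyte sums are higher, and LPS library 1 has the highest neutrophil sum (1846 CPM).

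The head-shielded mice allow a test of which effects differed with the shield. Marker levels also differed by shield, with and without LPS. Microglia identity genes summed to 30050 to 40720 CPM in unshielded and 55480 to 76720 CPM in head-shielded libraries. The marrow-derived list, which includes the abundant Apoe, summed to 69030 to 126800 CPM and 6433 to 29140 CPM in the same order. The part of the cell mix in the differences below was not tested. The difference of LPS effects, unshielded minus shielded, was called in 2512 genes (13.3% of 18875), 767 more positive (4.06%) and 1745 more negative (9.25%) in unshielded mice. For 2 shielded libraries titled as not given LPS the treatment field says LPS; without them, which leaves 1 shielded saline library, 148 genes were called, 83 more positive and 65 more negative. In these 2 libraries Fth1 took 0.2226 and 0.2281% of counts, against 0.2618% in the other shielded saline library and 0.5919 to 0.7351% in the shielded LPS libraries, and the B cell sum was 463.6 and 385.2 CPM, against 422.7 CPM and 52.96 to 61.7 CPM. Without shielded LPS library 3 the count was 6391, and leaving out any other single library gave 1615 to 2867. Differences that passed with and without these libraries are given here, with others named as such. Mrc1 rose in unshielded mice by 1.48 ± 0.17 and was at -0.42 ± 0.17 in shielded mice, a difference of 1.90 ± 0.24 (edgeR adjusted p = 0.00129, and 0.0157 without the conflicting libraries). Cd163 differed by 2.46 ± 0.35 (0.0024 and 0.0408), Tgfbi by 1.64 ± 0.23 (0.0019 and 0.0170) and Runx3 by 2.30 ± 0.41 (0.0059 and 0.0283), all as edgeR adjusted p with and without those libraries. In shielded mice Cd163 was at -0.37 ± 0.25, Tgfbi at 0.49 ± 0.16 and Runx3 at 0.51 ± 0.29.

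C3ar1 fell by 1.07 ± 0.12 in unshielded mice and was at 0.87 ± 0.12 in shielded mice, a difference of -1.93 ± 0.17 (edgeR adjusted p = 0.000464 and 0.0111 without the conflicting libraries). Tfrc, at 0.11 ± 0.15 in unshielded mice, was at 2.66 ± 0.16 in shielded mice, a difference of -2.54 ± 0.22 (edgeR adjusted p = 0.000464 and 0.0111). Of 23 lipid handling genes 5 differences were called more positive in unshielded mice and 3 more negative. Abcg1, a sterol exporter, differed by 1.22 ± 0.13 (edgeR adjusted p = 0.000764 and 0.0216), Cyp27a1 by 1.13 ± 0.20 (0.00373 and 0.0378) and Apoe by 2.45 ± 0.55 (0.0152 and 0.0111), although the call of Apoe ended with no low-count filter (adjusted p = 0.0773). Igf1 differed by 1.46 ± 0.36 (edgeR adjusted p = 0.0236 and 0.0289) and Tlr8 by 1.83 ± 0.48 (0.0296 and 0.0457), but leaving out single libraries ended both calls, with adjusted p up to 0.0684 for Igf1 and 0.0702 for Tlr8, and so did testing with no low-count filter (0.116 and 0.127). Several response genes had smaller rises in unshielded mice that were called only with the conflicting libraries included. Tlr2 differed by -1.74 ± 0.28 (edgeR adjusted p = 0.0029 and 0.0741), Irak3 by -1.21 ± 0.18 (0.00249 and 0.0606) and Il12b by -3.51 ± 0.78 (0.0151 and 0.193). Without those libraries, which leaves 1 shielded saline library, these differences were -1.58, -1.10 and -2.81 in the same order. The remaining genes drawn in the plot of effects by shield were also called with those libraries and not without them.

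**Figure D5:**
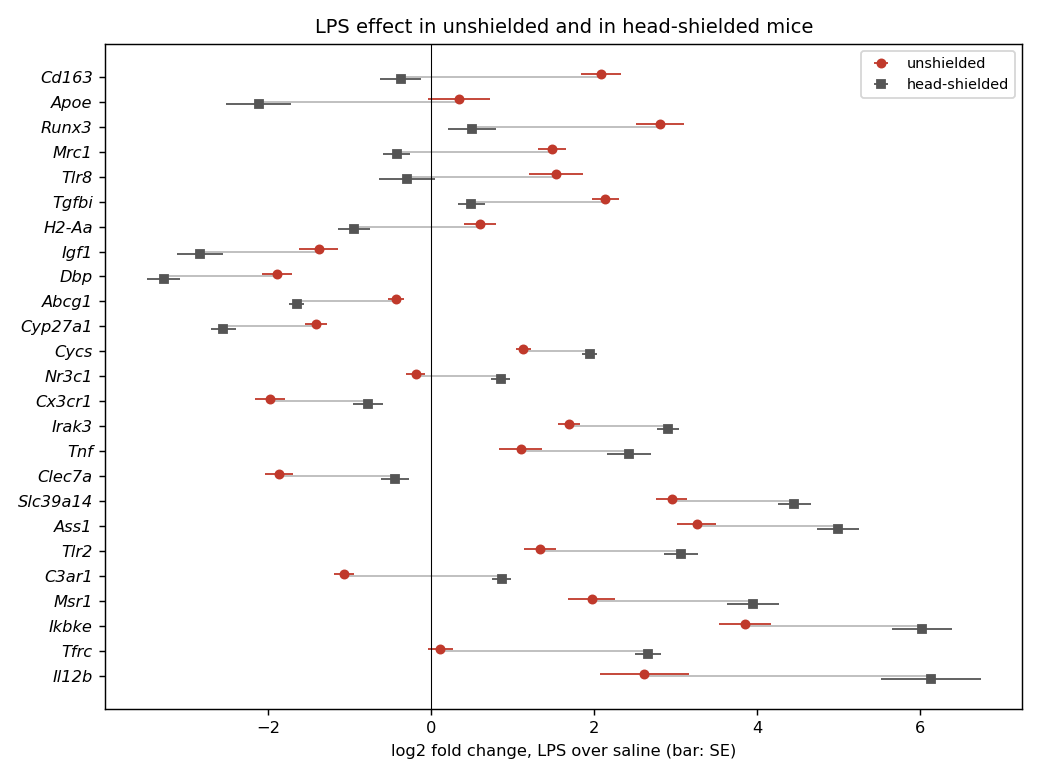
For 25 genes whose LPS effects differed by shield, red circles give the log2 fold change in unshielded and grey squares that in head-shielded mice, with bars for the SE. Cd163, Mrc1 and Runx3 lie to the right in unshielded mice, and Tfrc, C3ar1 and Il12b to the left.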

How the data were processed

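RNA-seq was done on CD11b-sorted brain cells of bone marrow transplanted mice, and the 6 libraries of unshielded mice, 3 given LPS and 3 given saline, were compared. The protocols in the labels state linear amplification of the RNA. Per the submitters' processing notes FastQC, STAR, HTSeq and the mouse build mm9 were used, and the sources used here give no version, annotation or strand setting. The authors deposited whole-number read counts per Ensembl gene for 36491 genes in 12 libraries, with no coordinates. Symbols came from the reference table of gene names, which left 254 identifiers without a symbol, and 12 identifiers that share a symbol kept their identifiers. Columns were matched to samples by title. Titles and treatment fields conflict for head-shielded saline libraries 2 and 3, whose field names LPS. Groups follow the titles. Since no label says whether each library came from its own animal, the p-values reflect the spread among these libraries, which may be technical.

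Counts were tested with edgeR 4.0.16 in R 4.3.3 (robust quasi-likelihood F test, TMM scaling, two-sided, Benjamini-Hochberg threshold 0.05) in 1 model over all 12 libraries and 4 groups, so that the spread is shared. FilterByExpr (minimum count 10, minimum total 15) left 18875 genes. SE was derived from the fold change and F (the size of the former over the root of the latter). CPM are TMM-scaled, with a prior count of 2 where logged. Alternatives used DESeq2 1.42.0, other scalings and filters, thinning, other sets of libraries and a replicate block. In shielded mice same-numbered LPS and saline libraries correlated at 0.112, 0.194 and 0.547 in their deviations from the group means. Shielded LPS library 1 correlated better with shielded saline library 2 (0.399) than with its own number. These values therefore do not settle whether the numbers of the titles pair libraries. In unshielded mice same-numbered libraries did not deviate together. On simulated counts with 200 of 18404 genes changed, recovery for the LPS effect in unshielded mice was 43% at 2-fold and 81% at 4-fold with 7 false calls, and for the difference by shield 25% and 66% with 6. The simulation changed far fewer genes than the 8128 called in the data, so its rates may not hold for the data. Library totals of 18090977 to 60495968 counts set the counting error, which is part of the spread between libraries.

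The comparison, the 56 gene lists (1113 symbols) and the named genes were chosen with earlier results of these data known. Named genes are, by rule, the 15 largest changes in each direction among called genes without overlap whose mean log2 CPM reaches 3, up to 5 called members a list and direction, genes that define a step or cell type, abundant genes, and for the difference by shield up to 3 called members a list and direction. Some were left out for length. The difference of Nr3c1, Cycs and Tnf and the other genes shown by shield follows the same rule.

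With the strand setting unknown, named genes that share exon positions with another gene in GENCODE vM21 are uncertain: Arntl, Bcl3, Cd180, Cd274, Cdkn1a, Cebpb, Cfb, Ciita, Cish, Cox5a, Csf1r, Csf2rb, Csf2rb2, Cx3cr1, Dab2, Dbp, Dusp1, Fcgr2b, Folr2, Fpr2, Gbp2, Gpr84, Hif1a, Ikbke, Il1b, Il4ra, Irak3, Irf7, Irgm2, Jak3, Jaml, Lpar6, Maf, March1, Mmp19, Mpo, Mt2, Myd88, Nlrc5, Nr1d1, Nrp1, Oasl1, P2rx7, P2ry12, Pkm, Ptger2, Runx1, Selp, Slc7a2, St3gal4, Stat3, Tap1, Tgfb2, Tgm1, Tgm2, Tnfsf9, Ucp2, Vcam1 and Zfp36. Genes with near-identical copies are also uncertain, here Bcl2a1a, Csf2rb and Csf2rb2, the Oas, Gbp and Irgm genes, the H2 genes, Ly6c2, Clec4d and Clec4e, Fpr2, Mt1 and Mt2.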

Additional observations from a re-analysis of the deposited data

Results flagged for a closer look

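The LPS effect differed between unshielded and head-shielded mice, by the test of the difference itself, for 40 genes named above (edgeR adjusted p for the difference under 0.05, of 2512 genes called among 18875). The values that follow are the log2 difference of the LPS effects, unshielded minus shielded, so a positive value is a more positive effect in unshielded mice. Among receptors of LPS, other patterns and chemoattractants the difference was -1.21 for Irak3, -1.74 for Tlr2, 1.83 for Tlr8, -1.42 for Clec7a, -1.93 for C3ar1, -0.78 for C5ar1 and -1.20 for Cx3cr1. Among NF-kB, interferon and cytokine genes the difference was -2.18 for Ikbke, -0.75 for Irf8, -3.51 for Il12b, -1.33 for Tnf, 1.46 for Igf1 and -0.71 for Pdgfb. Among lipid mediator and purine genes the difference was -1.78 for Ptges and 1.10 for Gpr34. Among glucocorticoid and clock genes the difference was 0.61 for Tsc22d3, -1.05 for Nr3c1 and 1.39 for Dbp. Among metabolic genes the difference was -0.62 for Ldha, -0.82 for Cycs, -1.73 for Ass1 and -1.65 for Slc7a11. Among iron and lipid genes the difference was -2.54 for Tfrc, -1.50 for Slc39a14, -0.64 for Lpl, 1.13 for Cyp27a1, 1.22 for Abcg1 and 2.45 for Apoe. Among presentation and survival genes the difference was 1.55 for H2-Aa, -1.17 for Cd274 and -1.15 for Fas. Among macrophage identity and surface genes the difference was 1.90 for Mrc1, 2.46 for Cd163, 1.64 for Tgfbi, 2.30 for Runx3, 0.92 for Cd47, -0.98 for Itga5 and 1.11 for St8sia4. Among genes outside these groups the difference was 2.06 for Slco1a4 and 0.73 for Npnt. Without the 2 shielded libraries whose labels conflict, edgeR still called the difference for Abcg1, Apoe, C3ar1, Cd163, Cyp27a1, Igf1, Mrc1, Runx3, Tfrc, Tgfbi and Tlr8, and the adjusted p of the other genes was at least 0.0502. With the replicate block nested in the shield groups the differences of Gpr34 and Npnt were no longer called (edgeR adjusted p = 0.0549 and 0.0669). In fits with a single library left out, some calls were lost as well. These were of C5ar1, Cd274, Fas, Gpr34, Igf1, Irf8, Ldha, Lpl, Npnt, Pdgfb, Slc7a11, Tlr8 and Tnf. Testing with no low-count filter ended those of Apoe, Cd274, Gpr34, Igf1, Ikbke, Il12b, Ldha, Lpl, Slc7a11, Slco1a4, Tlr8 and Tnf.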

How the results depend on the processing

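The 8128 calls of the LPS effect in unshielded mice stayed within 1.5 times under every alternative run, from 6219 without saline library 3 to 9579 in a fit of the unshielded libraries alone. Scaling by library totals changed the split of the calls, to 2656 higher and 6520 lower. Leaving out 1 unshielded library at a time gave 6219 to 7242 calls, 3381 to 4413 higher and 2584 to 3273 lower. The difference by shield was less stable. Its 2512 calls (767 more positive and 1745 more negative in unshielded mice) were 1571 with no low-count filter, of which 821 were more negative, and 148 (83 and 65) without the 2 shielded libraries with conflicting labels, which leaves that group 1 library, assumed to vary like the others. Leaving out 1 library at a time gave 1615 to 6391 calls, 413 to 2951 more positive and 1142 to 3440 more negative. The total rose by over 1.5 times without shielded LPS library 3 (6391) and fell by over 1.5 times without shielded saline library 3 (1615) or unshielded saline library 2 (1635). The cause of these shifts was not tested.

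For single genes named in the text, 3541 alternative values of the LPS effect kept the direction and side of the threshold, 23 lost the call, 2 gained one and none reversed in a called value. For the difference by shield 668 were kept and 132 lost. In unshielded mice same-numbered LPS and saline libraries correlated at -0.115, -0.0943 and 0.0199 in their deviations from the group means. No unshielded LPS library correlated best with its own number, so these values give no sign of pairing by number. With replicate number as a block the unshielded libraries alone gave 8813 calls (4442 higher, 4371 lower), and a replicate block nested in the shield groups gave 2385 for the difference (807 and 1578) and, of the named differences, ended those of Gpr34 and Npnt alone. The block in the unshielded libraries alone ended the calls of Csf3 (adjusted p = 0.0821), Lcn2 (0.0585), Ngp (0.322), S100a8 (0.161) and Sall1 (0.0982) by edgeR. Thinning every library to the smallest total gave 7689 calls, and changes of genes with low counts may not be detectable at this depth.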
